A study of Homo sapiens with 18 samples.

Results

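Protein arginine methyltransferases transfer methyl groups from S-adenosylmethionine to arginine residues of histones, RNA-binding proteins and splicing factors. Type I enzymes (PRMT1, PRMT2, PRMT3, CARM1 and PRMT6) leave asymmetric dimethylarginine, the type II enzyme PRMT5 leaves symmetric dimethylarginine, and the type III enzyme PRMT7 leaves monomethylarginine. PRMT1 is the main type I enzyme of most mammalian cells, and several substrates can be methylated by more than one enzyme, so loss of one activity can shift sites to another. The genes described here are the 6 arginine methyltransferases PRMT1, PRMT2, PRMT3, PRMT6, PRMT7 and CARM1 (also called PRMT4), taken by name from the 20705 gene symbols of the count table. All 6 were listed and had reads in every library. The question put to them was whether any gained mRNA when PRMT5 was blocked.

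Both cell lines used, CHL1 and A375, were established from human melanoma and are labelled wild type for genotype. Per the study's methods, CHL1 carries no BRAF or NRAS mutation but has mutant p53 and was grown in DMEM, while A375 has mutant BRAF and wild-type p53 and was grown in RPMI-1640, so line, p53 status and medium cannot be told apart. Poly-A RNA was sequenced from 18 libraries, 2 in each of 9 groups. In each line, cells received DMSO (control) for 72 hours, the PRMT5 inhibitor GSK3326595 at 500 nM for 72 hours (PRMT5i), or the CDK4/6 inhibitor palbociclib at 1 µM for 72 hours or 6 days (CDK4/6i), and A375 also had a DMSO control at 6 days. Both compounds block enzyme activity and do not target the mRNA, so the transcript of the drug target is no check of the labels. CHL1 has DMSO libraries at 72 hours alone, and its 6-day cells were therefore set against these, so drug and time in culture cannot be told apart there. The labels do not say whether the replicates were separate cultures, so p-values measure only the spread between these libraries.

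Library totals ran from 16213475 to 37424081 counts, and the lowest count of a member in any library was 429, for PRMT7. In 4 libraries, GC-rich transcripts were read less than GC-poor ones. As a measure of this, each gene's log2 level was taken relative to its median over the line's libraries, and the median over the 10% of genes with least GC was subtracted from that over the 10% with most GC. CHL1 PRMT5i stood at -2.49 and -1.98 by this measure and the A375 6-day control at -2.27 and -1.12, while 14 libraries ranged from -0.17 to 0.50. The members' fold changes in comparisons that use the tilted libraries are therefore also given with a correction for transcript GC content. Of the melanocyte lineage markers, 6 of 9 were listed, with a summed level of 116.5 to 282.3 CPM, that is counts scaled to a common library size, over the group means. MITF was expressed in both lines, while TYR and PMEL stayed at or below 3.00 CPM in every group mean, and DCT was found in CHL1 at 36.4 to 133.9 CPM and in A375 at no more than 1.33 CPM. Summed group levels were 0.715 to 10.3 CPM for 3 of 4 epithelial markers, 2.31 to 19.4 CPM for 2 of 4 immune markers and 0.02 to 2.38 CPM for 1 of 3 endothelial markers, and what part these cells or genes had in the results was not tested.

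The members differ in base composition, which bears on every comparison below. PRMT3 lies on chr11:20409104-20530884 (GRCh37, plus strand) with 16 exons in its main transcript, and the GC content of its longest transcript was 34.8%. PRMT6 on chr1:107599296-107610258 has 1 exon in its main transcript and 47.4% GC, PRMT2 on chr21:48055507-48085036 has 12 exons and 48.0% GC, and PRMT7 on chr16:68344854-68394755 has 19 exons and 50.8% GC. PRMT1 on chr19:50179043-50192286 has 11 exons and 56.8% GC, and CARM1 on chr19:10982229-11033751 has 16 exons and 61.5% GC. PRMT3 is therefore the most AT-rich member and CARM1 the most GC-rich. Exons of the opposite strand overlap 891 bp (20.2%) of the CARM1 exons (YIPF2) and 1931 bp (13.9%) of the PRMT7 exons (SMPD3). Both neighbours are in the table, and the study's methods state default counting settings, which use strand. The kit is not stated to keep strand, so reads in the shared bases may come from either gene.

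All 6 members start in a CpG-rich promoter. In RefSeq promoter windows of 300 bases (GRCh38.p14, 250 before and 50 after the start), GC content was 82.3% for CARM1, 75.0% for PRMT3, 72.0% for PRMT2, 65.7% for PRMT7, 63.0% for PRMT6 and 62.0% for PRMT1, against a median of 58.3% over 27305 promoters. The number of CpG dinucleotides was 56 in CARM1, 48 in PRMT3, 36 in PRMT2, 33 in PRMT7, 25 in PRMT6 and 22 in PRMT1, with a median of 14 over all promoters. The 250 bases before the start are shown for PRMT1 and CARM1, which fell under PRMT5i in CHL1 on the counts as deposited, and for PRMT3, which rose. With the GC correction PRMT1 alone of these 3 was called. CpG dinucleotides are in capitals, and the coordinates are PRMT1 chr19:49677021-49677270, CARM1 chr19:10871303-10871552 and PRMT3 chr11:20387466-20387715, all on the plus strand.
PRMT1: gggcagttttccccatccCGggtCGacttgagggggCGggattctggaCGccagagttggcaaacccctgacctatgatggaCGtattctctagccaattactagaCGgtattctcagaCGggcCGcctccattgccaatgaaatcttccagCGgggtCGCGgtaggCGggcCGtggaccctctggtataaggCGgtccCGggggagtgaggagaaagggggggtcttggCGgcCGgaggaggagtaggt
CARM1: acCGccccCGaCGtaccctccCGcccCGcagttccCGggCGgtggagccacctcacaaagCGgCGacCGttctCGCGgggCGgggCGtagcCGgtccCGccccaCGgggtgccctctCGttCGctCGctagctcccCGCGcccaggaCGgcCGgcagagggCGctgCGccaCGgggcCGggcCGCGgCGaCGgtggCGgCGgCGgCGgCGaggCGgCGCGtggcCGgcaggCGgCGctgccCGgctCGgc
PRMT3: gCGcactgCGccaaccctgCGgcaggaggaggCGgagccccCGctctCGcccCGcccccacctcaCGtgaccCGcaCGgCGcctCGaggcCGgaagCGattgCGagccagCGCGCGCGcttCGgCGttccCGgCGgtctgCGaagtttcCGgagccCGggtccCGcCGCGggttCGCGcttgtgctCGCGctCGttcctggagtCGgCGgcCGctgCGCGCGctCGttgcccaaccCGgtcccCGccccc
No window of the 6 members held any of the E2F-type letters TTTGGCGC, TTTGCCGC, TTTCGCGC, TTTCCCGC or GGCGGGAA on either strand, and 5.57% of all 27305 windows held at least 1 of these 5. The letters overlap in part with each other, and their absence says nothing of E2F binding.

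PRMT1 and CARM1 were the leading members by level per length. In the CHL1 control, the 6 members summed to 83.7 ± 3.38 CPM per kb of exons (SD, n = 2), and PRMT1 took 31.0% of this sum, CARM1 24.6%, PRMT3 20.7%, PRMT2 14.6%, PRMT6 6.70% and PRMT7 2.38%. In the A375 control of 72 hours, the sum was 116.1 ± 11.5 CPM per kb (SD, n = 2), with PRMT1 at 37.9%, CARM1 at 29.1%, PRMT3 at 11.7%, PRMT6 at 11.1%, PRMT2 at 6.77% and PRMT7 at 3.43%. The order of the first 3 was the same in both control groups by this measure, and PRMT6 and PRMT2 changed places. The length used was that of all annotated exons together. It was 13884 bp for PRMT7 and 4796 bp for PRMT1, whose longest transcripts have 4652 and 1686 bp. Shares and order between members therefore depend on the length chosen.

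**Figure D1:**
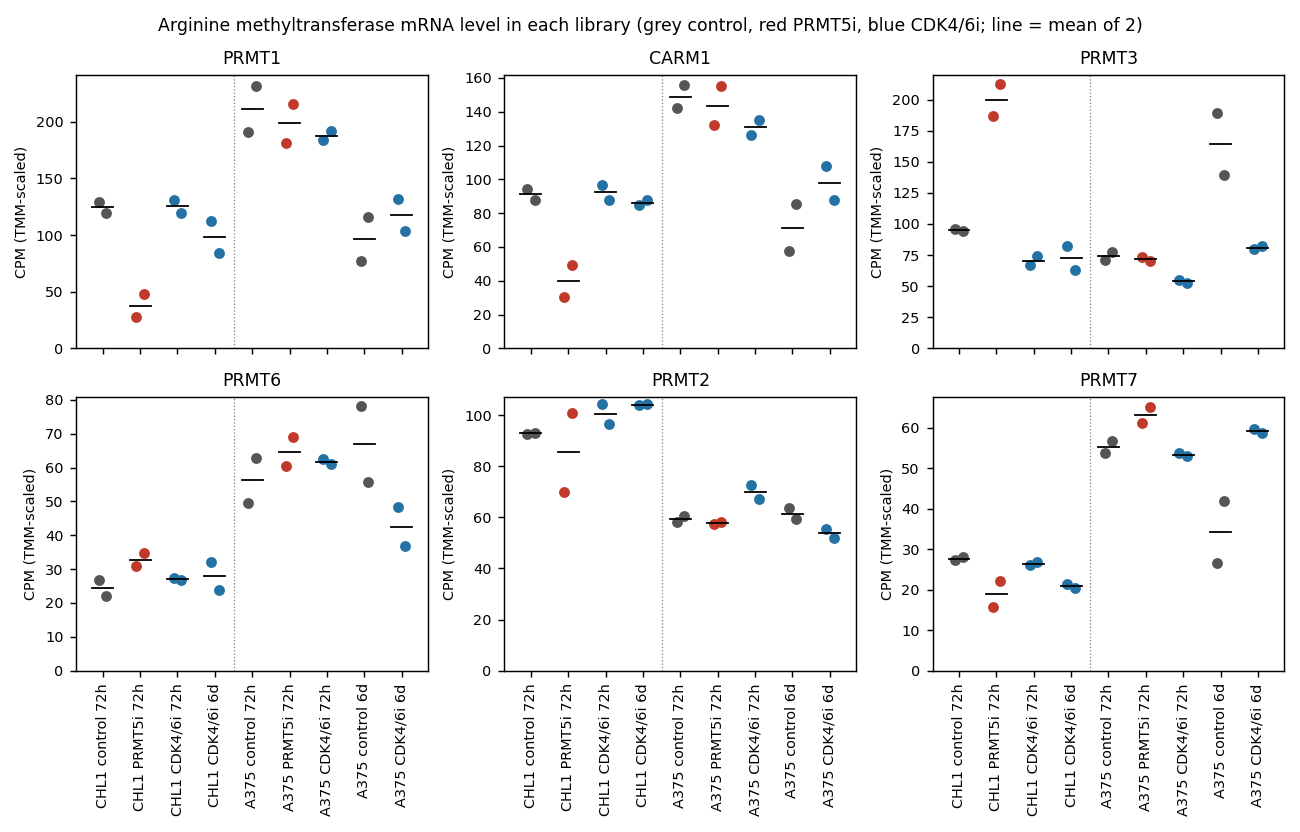
TMM-scaled CPM (y axis) of each member in every library of the 9 groups (x axis), with points for libraries and a line for the mean of 2. PRMT1 and CARM1 sit lowest in the CHL1 PRMT5i libraries, and PRMT3 sits highest in these and in the 6-day control of A375.

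Across the 9 groups, the order of levels (TMM-scaled CPM, comparable within a gene) differed by member. PRMT6, a nuclear enzyme known for methylating histone H3 at arginine 2, was the member that separated the lines. It ran from 22.0 to 34.8 CPM in the 8 CHL1 libraries and from 36.8 to 78.1 CPM in the 10 A375 libraries, with no overlap. PRMT2, a weakly active enzyme with an SH3 domain, was mostly higher in CHL1, with 69.8 to 104.6 CPM against 52.1 to 72.6 CPM in A375, and the ranges overlapped through a single CHL1 PRMT5i library. PRMT7 ran from 15.7 to 28.1 CPM in CHL1 and from 26.5 to 65.1 CPM in A375, overlapping through an A375 control library of 6 days. By the library names in the table, the A375 libraries of 72 hours form 1 set and all others, those of A375 at 6 days and of CHL1, form another. Within the latter, CDK4/6i cells of 6 days had PRMT6 at 42.5 CPM in A375 and 28.1 CPM in CHL1, PRMT2 at 53.8 and 104.2 CPM, and PRMT7 at 59.1 and 20.9 CPM (means, n = 2). These members were named for ranges that include the same libraries, so the means are no separate support. These differences between lines were not tested.

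PRMT1 was highest in the 3 A375 groups of 72 hours, whose means of 187.6 to 211.2 CPM overlapped in their libraries, and lowest in CHL1 PRMT5i at 37.5 CPM, below all other libraries. The 5 groups between, from 96.5 to 125.3 CPM, each overlapped with the next. CARM1 followed the same order at its ends, from 149.0 CPM in the A375 control of 72 hours to 39.7 CPM in CHL1 PRMT5i. PRMT3 was highest in CHL1 PRMT5i (199.3 CPM) and in the A375 control of 6 days (164.2 CPM), whose libraries overlapped, and the other 7 groups lay between 53.9 and 95.1 CPM. These 2 high groups for PRMT3 are those of the 4 GC-tilted libraries.

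Blocking PRMT5 in CHL1 was followed by lower PRMT1, CARM1 and PRMT7 and higher PRMT3 on the counts as deposited, and after correction for GC content the fall of PRMT1 was the call that remained, with PRMT6 joining as a rise. PRMT1 had 129.0 and 119.9 CPM in the 2 control libraries and 27.4 and 47.6 CPM in the 2 PRMT5i libraries. Both treated libraries lay far below both controls, and the log2 fold change was -1.71 (SE 0.24, adjusted p = 0.000194, edgeR), or 0.31 times the control level. CARM1, which methylates histone H3 and transcriptional coactivators, had 94.4 and 87.8 CPM in control and 30.2 and 49.2 CPM under PRMT5i, with a log2 fold change of -1.18 (SE 0.21, adjusted p = 0.000593). PRMT3, a cytosolic enzyme that methylates the ribosomal protein RPS2, had 96.2 and 94.0 CPM in control and 186.4 and 212.1 CPM under PRMT5i. Its treated libraries were both above the controls, with a log2 fold change of 1.09 (SE 0.17, adjusted p = 0.000334), or 2.12 times the control level.

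PRMT7 had 27.3 and 28.1 CPM in control and 15.7 and 22.2 CPM under PRMT5i, and it passed the test at -0.53 (SE 0.19, adjusted p = 0.0325). Its call was lost when either control library, PRMT5i replicate 1 or CDK4/6i 72-hour replicate 2 was left out, at adjusted p from 0.0577 to 0.143, with log2 fold changes from -0.55 to -0.30, and when the fit held the control and PRMT5i libraries alone (-0.46, adjusted p = 0.0834). PRMT6 had 26.8 and 22.0 CPM in control and 30.8 and 34.8 CPM under PRMT5i. The groups did not overlap, but at 0.45 (SE 0.19, adjusted p = 0.0675) the difference did not pass. It did pass with DESeq2 (0.50, adjusted p = 0.039), with RLE scaling (adjusted p = 0.0452), and without CDK4/6i 6-day replicate 1 or 2 (adjusted p = 0.0448 and 0.044). PRMT2 had 92.7 and 93.1 CPM in control and 69.8 and 101.1 CPM under PRMT5i, so the treated libraries lay on both sides of the controls (log2 fold change -0.10, 95% interval -0.49 to 0.29, adjusted p = 0.677). Without PRMT5i replicate 2 it passed at -0.40 (adjusted p = 0.0451), and without replicate 1 it was 0.14 (adjusted p = 0.456). In all, 1 of 6 members rose and 3 fell, where 54% of all 20705 genes passed in this comparison (26.4% up-regulated and 27.6% down-regulated), so the members passed at about the rate of the transcriptome. The median log2 fold change was -0.31 over the 6 members and 0 over all genes.

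**Figure D2:**
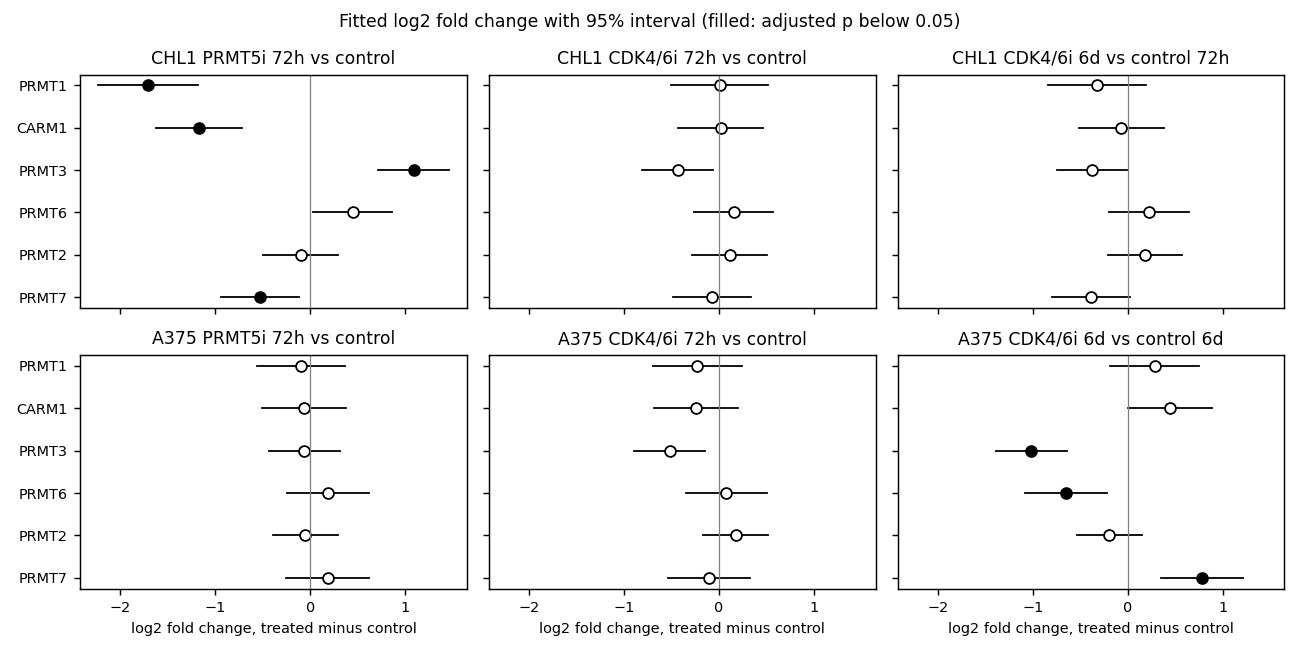
Log2 fold change (x axis) of each member in the 6 comparisons with control, with 95% intervals; filled circles passed at an adjusted p below 0.05. Of the 3 drug treatments in each line, 4 members passed under PRMT5i in CHL1, 3 under CDK4/6i for 6 days in A375, and 0 in the other 4 comparisons.

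The changes in CHL1 followed the GC content of the transcripts. PRMT3, with 34.8% GC, had the highest fold change, and the 2 most GC-rich members, PRMT1 and CARM1, had the lowest. Over 13675 genes with a GC value and a mean of at least 1 CPM, the Spearman correlation of fold change with GC content was -0.82 in this comparison, and after the correction it was -0.26, so part of the tilt remained (a description across genes, which share the libraries). Corrected, PRMT3 stood at -0.079 (SE 0.10, adjusted p = 0.57), CARM1 at -0.16 (SE 0.11, adjusted p = 0.271) and PRMT7 at -0.19 (SE 0.15, adjusted p = 0.351). PRMT1 stayed lower at -0.90 (SE 0.18, 95% interval -1.29 to -0.51, adjusted p = 0.00309). PRMT6 was higher at 0.48 (SE 0.17, 95% interval 0.11 to 0.86, adjusted p = 0.0423), and PRMT2 stood at -0.011 (adjusted p = 0.97). The 2 members called were set against 38.7% of the 13675 genes called with the correction and 69.7% without it. PRMT6 also passed on the uncorrected counts of these genes at 0.46 (adjusted p = 0.042), so its call depended on the genes tested. How far the library tilt and the drug each contributed was not tested, since all PRMT5i libraries of CHL1 carry the tilt and drug and tilt cannot be told apart.

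**Figure D3:**
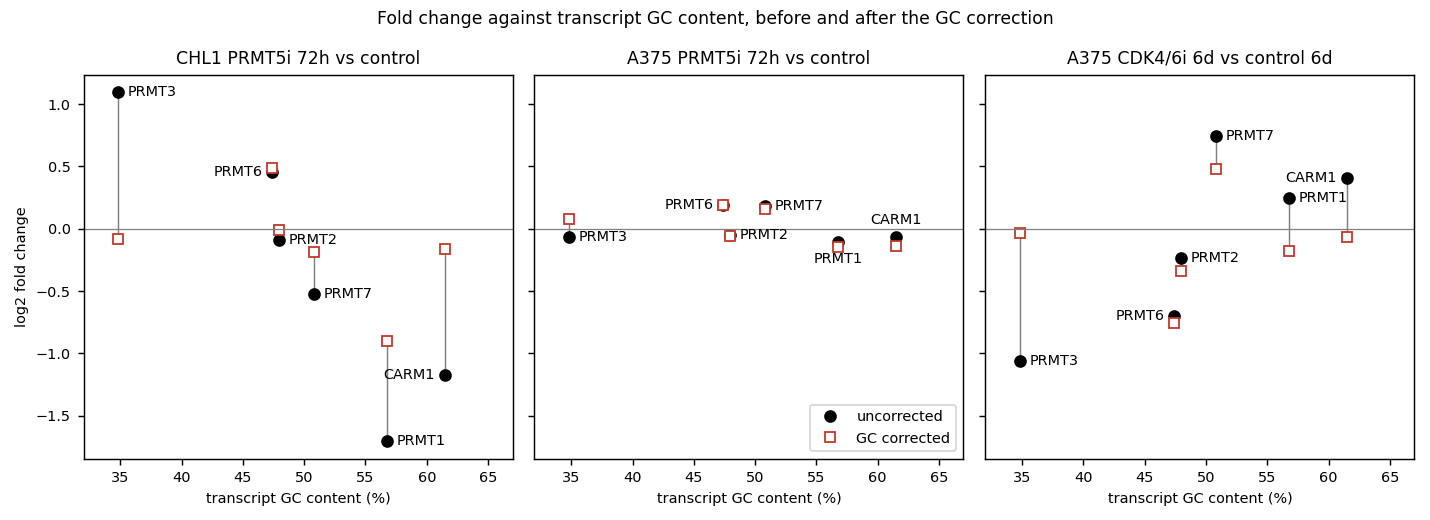
Log2 fold change (y axis) against the GC content of the longest transcript in percent (x axis) for the 6 members in 3 comparisons; filled circles are uncorrected and open squares GC corrected values on the same 13675 genes. In CHL1 under PRMT5i, PRMT3 moved from 1.10 to -0.079 and CARM1 from -1.17 to -0.16 with the correction, while PRMT1 moved from -1.70 to -0.90. In A375 under PRMT5i, no member moved by more than 0.15.

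The mix of the family shifted accordingly. Under PRMT5i in CHL1, PRMT3 took 53.2% and 46.8% of the summed level per length in the 2 libraries, and by group mean PRMT2 took 15.2%, CARM1 12.1%, PRMT1 10.5%, PRMT6 10.4% and PRMT7 1.85%. The sum itself was 73.3 ± 13.2 CPM per kb (SD, n = 2), and its libraries at 64.0 and 82.6 lay on both sides of the lower control library (81.3 and 86.1). These shares come from uncorrected levels.

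**Figure D4:**
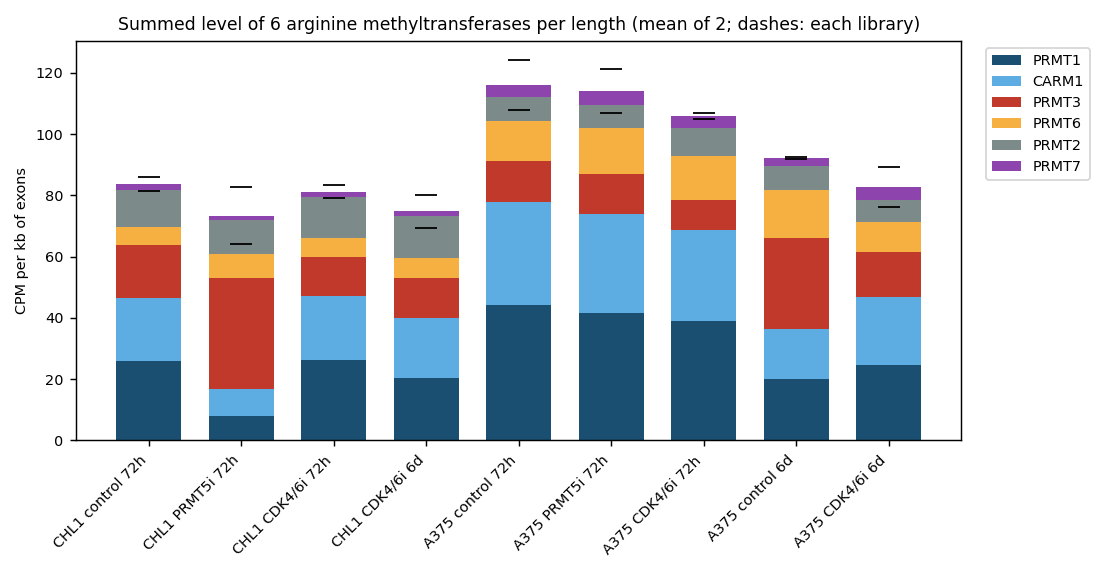
Stacked bars give the mean level per length (CPM per kb of exons, y axis) of the 6 members in each of the 9 groups (x axis), and dashes give the sum in each library. PRMT3 made up 53.2% and 46.8% of the sum under PRMT5i in CHL1. In A375 its part was 37.5% and 27.5% in the 6-day control and 12.1% and 11.4% in the 72-hour control.

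In A375, where the PRMT5i libraries carry no such tilt, none of the members passed under PRMT5i. PRMT1 had 190.9 and 231.6 CPM in control and 181.4 and 216.2 CPM under PRMT5i. PRMT3 had 71.3 and 77.5 CPM in control and 73.1 and 70.4 CPM under PRMT5i. CARM1 had 142.3 and 155.7 CPM in control and 132.2 and 155.0 CPM under PRMT5i. For each of these 3 the treated and control libraries overlapped. PRMT7, at 53.7 and 56.7 CPM in control and 61.1 and 65.1 CPM under PRMT5i, and PRMT2, at 58.3 and 60.7 and then 57.5 and 58.2 CPM, did not overlap, but neither passed. PRMT6 had 49.5 and 62.9 CPM in control and 60.4 and 68.9 CPM under PRMT5i, which overlapped.

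The fitted log2 fold changes of the 6 members in A375 ran from -0.10 to 0.19, and their 95% intervals reached from -0.57 to 0.62, so a rise of up to 0.62 on the log2 scale lies within them. By edgeR 0 of 6 members were called, 0 had an unadjusted p below 0.05, and DESeq2 and limma voom also called 0. In this comparison 2.61% of all genes passed. After correction for GC content, 0 members were called and the values ran from -0.15 to 0.19. The correction called 10.4% of the 13675 genes in this comparison, against 2.65% without it. The family sum stayed at 114.1 ± 10.1 CPM per kb (SD, n = 2), with PRMT1 at 36.3%, CARM1 at 28.4%, PRMT6 at 13.1% and PRMT3 at 11.5%.

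The response of 4 members to PRMT5i differed between the lines by the interaction term of the fit of all 18 libraries, in which 40.9% of all genes passed. The CHL1 response minus the A375 response was -1.64 for PRMT1 (SE 0.34, adjusted p = 0.00119), 1.12 for PRMT3 (SE 0.24, adjusted p = 0.0016), -1.14 for CARM1 (SE 0.30, adjusted p = 0.0056) and -0.74 for PRMT7 (SE 0.28, adjusted p = 0.0394). With the GC correction, PRMT1 kept its call at -0.75 (SE 0.24, adjusted p = 0.028), while PRMT3 stood at -0.16, CARM1 at -0.015 and PRMT7 at -0.34, none of which passed. In this difference 29.3% of the 13675 genes were called with the correction, against 58.4% without it. The PRMT7 difference also missed the threshold with DESeq2 (adjusted p = 0.0551) and RLE normalization (adjusted p = 0.0634), and it passed in 7 of 18 fits that each left out 1 library, with values from -0.95 to -0.49. Leaving out either 72-hour control library of either line, or either CDK4/6i library of A375 at 72 hours or at 6 days, ended the call, as did leaving out CHL1 CDK4/6i 72-hour replicate 1, CHL1 PRMT5i replicate 1 or A375 PRMT5i replicate 2.

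Under palbociclib, PRMT3 had the lowest uncorrected fold change of the 6 members at 72 hours in both lines, and with the GC correction CARM1 (-0.40) and PRMT1 (-0.32) were lower than PRMT3 in A375. In CHL1 it had 66.7 and 74.1 CPM at 72 hours and 82.1 and 62.7 CPM at 6 days, against 96.2 and 94.0 CPM in control. All 4 treated libraries were below both controls, but the log2 fold changes of -0.44 (SE 0.17, adjusted p = 0.176) at 72 hours and -0.38 (SE 0.17, adjusted p = 0.16) at 6 days did not pass. The first passed when the fit held the control and CDK4/6i libraries of 72 hours alone (adjusted p = 0.0118), and the second without CDK4/6i 6-day replicate 1 (-0.60, adjusted p = 0.0475). After the correction they were -0.40 (SE 0.10, adjusted p = 0.0255) and -0.54 (SE 0.10, adjusted p = 0.00341), both called. Of the 13675 genes, 15.6% and 31.8% were called with the correction in these comparisons, against 6.66% and 21.1% without it. In A375 at 72 hours PRMT3 had 55.3 and 52.6 CPM against 71.3 and 77.5 CPM, a log2 fold change of -0.52 (SE 0.18, adjusted p = 0.0616), which became -0.24 (adjusted p = 0.11) with the correction. It passed at adjusted p = 0.00137 when the fit held the control and CDK4/6i libraries of 72 hours alone, and at 0.00216 and 0.00226 without A375 control 6-day replicate 1 or 2. With the replicate number as a block, PRMT3 (-0.52, adjusted p = 5.22e-08), CARM1 (-0.24, adjusted p = 0.0125) and PRMT1 (-0.22, adjusted p = 0.0378) passed, and with block and GC correction together PRMT3 stood at -0.24 (adjusted p = 0.0109). The block fit called 8752 of all 20705 genes, the same libraries without the block 6424, and the fit of all A375 libraries 2761.

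No member was called under CDK4/6i in CHL1 or at 72 hours in A375 on the counts as deposited. In CHL1, 0 members were called at either time, 1 had an unadjusted p below 0.05 at each time, and DESeq2 and limma voom called 0; 4.98% of all genes passed at 72 hours and 16.6% at 6 days. PRMT1 had 130.6 and 119.9 CPM at 72 hours and 112.6 and 83.9 CPM at 6 days. CARM1 had 96.7 and 87.9 CPM and then 84.7 and 87.5 CPM. PRMT7 at 6 days, with 21.4 and 20.5 CPM, was below both controls at -0.39 (SE 0.19, adjusted p = 0.186), and it passed without PRMT5i replicate 1 or 2 in the fit (adjusted p = 0.0482 and 0.0489). In A375 at 72 hours, edgeR, DESeq2 and limma voom each called 0 members, 1 had an unadjusted p below 0.05, and 13.3% of all genes passed. CARM1, with 126.5 and 135.2 CPM against 142.3 and 155.7 CPM in control, stood at -0.25 (SE 0.21) and passed with the GC correction at -0.40 (SE 0.12, adjusted p = 0.027). The correction called 28.9% of the 13675 genes there, against 18.2% without it. The CDK4/6i response at 72 hours did not differ past the threshold between lines for any member (differences from -0.12 to 0.21, 95% intervals within -0.61 to 0.89). In that test edgeR, DESeq2 and limma voom called 0 members, 0 had an unadjusted p below 0.05, and 0.642% of all genes passed.

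After 6 days of CDK4/6i in A375, PRMT3 and PRMT6 were lower and PRMT7 higher than in the 6-day control, whose libraries carry the GC tilt. PRMT3 had 188.8 and 139.6 CPM in control and 79.7 and 82.4 CPM in treated cells, with a log2 fold change of -1.02 (SE 0.18, adjusted p = 0.000375). Here the control libraries stood out, as the treated libraries lay near the 71.3 and 77.5 CPM of the 72-hour control. With the GC correction the PRMT3 difference was -0.035 (SE 0.10, adjusted p = 0.804).

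PRMT6 had 78.1 and 55.7 CPM in control and 48.2 and 36.8 CPM after 6 days of CDK4/6i. Both treated libraries were below both controls, at -0.65 (SE 0.20, adjusted p = 0.0165), and with the GC correction the fall was -0.76 (SE 0.18, adjusted p = 0.00633). Its uncorrected call was lost without A375 control 6-day replicate 1 (-0.42, adjusted p = 0.0831) or CDK4/6i 6-day replicate 2 (-0.46, adjusted p = 0.174), and when the fit held the libraries of 6 days alone (-0.69, adjusted p = 0.0907). PRMT7 had 26.5 and 41.9 CPM in control and 59.7 and 58.6 CPM in treated cells. It rose by 0.78 (SE 0.21, adjusted p = 0.00668), and with the correction by 0.48 (SE 0.14, adjusted p = 0.0193). The size of the PRMT7 change rested in part on the control libraries, since it was 1.18 without A375 control 6-day replicate 2 and 0.46 without replicate 1. In a fit of the 6-day libraries alone it was 0.74 and did not pass (adjusted p = 0.0712).

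PRMT1 had 76.9 and 116.1 CPM in the 6-day control and 132.2 and 103.8 CPM in treated cells, which overlapped (log2 fold change 0.28, SE 0.22, adjusted p = 0.317). CARM1 had 57.4 and 85.3 CPM in control and 107.6 and 87.6 CPM in treated cells (0.44, SE 0.21, adjusted p = 0.098). With the correction both were slightly lower in treated cells and did not pass, PRMT1 at -0.18 (adjusted p = 0.334) and CARM1 at -0.066 (adjusted p = 0.676). Without A375 control 6-day replicate 2, PRMT1 passed at 0.64 (adjusted p = 0.00905) and CARM1 at 0.79 (adjusted p = 0.00111). PRMT2, with 63.6 and 59.3 CPM in control and 55.4 and 52.1 CPM in treated cells, stood at -0.19 (SE 0.16, adjusted p = 0.346) and passed with the correction, at -0.34 (adjusted p = 0.0177). In all, 1 of 6 members rose and 2 fell uncorrected, where 43.1% of all genes passed (21.8% up and 21.3% down). With the correction 1 rose and 2 fell, where 43.5% of the 13675 genes passed. Against the 72-hour control, which is of another library set, the 6-day cells had PRMT3 at 0.078 (adjusted p = 0.777), PRMT7 at 0.055 (adjusted p = 0.874), PRMT6 at -0.45 (adjusted p = 0.108), PRMT1 at -0.88 (adjusted p = 0.00624) and CARM1 at -0.66 (adjusted p = 0.0253).

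The drugs were also set against each other at 72 hours. In CHL1, PRMT5i minus CDK4/6i was -1.72 for PRMT1 (SE 0.24, adjusted p = 0.000106), 1.52 for PRMT3 (SE 0.17, adjusted p = 3.2e-05) and -1.19 for CARM1 (SE 0.21, adjusted p = 0.000414), where 57.8% of all genes passed. After correction for GC content PRMT1 stood at -0.86 (adjusted p = 0.0023) and PRMT3 at 0.32 (adjusted p = 0.0228), both called, and CARM1 at -0.048 (adjusted p = 0.736). The correction called 49.6% of the 13675 genes there, against 72.7% without it. PRMT7 at -0.46 (SE 0.19, adjusted p = 0.0559) did not pass, but it did on the uncorrected counts of the 13675 genes (adjusted p = 0.0401). Corrected, PRMT7 stood at -0.12 (adjusted p = 0.543). By limma voom 4 members were called in this comparison, against 3 by edgeR. In A375 edgeR, DESeq2 and limma voom each called 0 members and 1 had an unadjusted p below 0.05, where 5.45% of all genes passed. This was PRMT3, at 0.46 (SE 0.18, adjusted p = 0.146). PRMT3 was thus higher under PRMT5i than under CDK4/6i in both lines by its fitted value, with the call in CHL1. Against control, PRMT3 under PRMT5i stood at -0.064 in A375 (0.082 corrected) and at 1.09 in CHL1 (-0.079 corrected). Under CDK4/6i at 72 hours it stood at -0.52 in A375 (-0.24 corrected) and at -0.44 in CHL1 (-0.40 corrected).

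Under PRMT5i, PRMT5 itself and its partners showed no common direction in CHL1, and in A375 their fitted values were positive but none passed. PRMT5, the drug target, had 9.5 and 7.9 CPM in the CHL1 control and 4.3 and 4.6 CPM under PRMT5i, a fall of 0.96 on the log2 scale (SE 0.20, adjusted p = 0.0016). In A375 it had 11.7 and 13.9 CPM in control and 15.4 and 20.2 CPM under PRMT5i (0.46, SE 0.25, adjusted p = 0.401). The PRMT5 exons share 924 bp (28.2%) with PRMT5-AS1 on the other strand. Of the 8 genes of the list of other family members and PRMT5 cofactors, 4 rose and 2 fell in CHL1 under PRMT5i, where 54% of all genes passed. CLNS1A (0.90, adjusted p = 0.000522) and RIOK1 (0.63, adjusted p = 0.0112), which are alternative adaptors that bring substrates to PRMT5, rose, as did PRMT9 (0.54, adjusted p = 0.0407), the other type II enzyme, and NDUFAF7 (0.51, adjusted p = 0.0252), a mitochondrial arginine methyltransferase. COPRS, an adaptor for histone substrates, fell by 0.65 (adjusted p = 0.00827), and WDR77, the obligate partner of PRMT5, stood at -0.36 (adjusted p = 0.075). Of the 7 with a GC value and enough reads, none rose after the correction (CLNS1A at 0.16, RIOK1 at 0.13, PRMT9 and NDUFAF7 at -0.15, COPRS at 0.10), and PRMT5 fell (-0.51, adjusted p = 0.0378). PRMT8, a brain enzyme, had 1 to 18 counts per library and is not read further. In A375 under PRMT5i, 0 of the 8 were called by edgeR and WDR77 (0.47, adjusted p = 0.241) and RIOK1 (0.42, adjusted p = 0.293) were those with an unadjusted p below 0.05. COPRS (0.36, adjusted p = 0.549) and CLNS1A (0.15, adjusted p = 0.742) also had positive fitted values. Those of PRMT9 (-0.33, adjusted p = 0.558) and NDUFAF7 (-0.083, adjusted p = 0.889) were negative. After 6 days of CDK4/6i in A375, PRMT5 (0.66, adjusted p = 0.0477), WDR77 (0.93, adjusted p = 0.00162) and COPRS (0.94, adjusted p = 0.00908) rose, and 0 fell, where 43.1% of all genes passed. The control libraries here carry the GC tilt, and with the correction WDR77 kept its call (0.78, adjusted p = 0.00225), NDUFAF7 gained one (0.35, adjusted p = 0.0428), and PRMT5 (0.31, adjusted p = 0.247) and COPRS (0.53, adjusted p = 0.0526) did not pass.

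Among regulators and enzymes of methylarginine turnover, BTG2 changed in both lines in opposite directions. BTG2, a p53 target whose protein binds PRMT1 and raises its activity, had 10.7 ± 0.69 CPM in the CHL1 control and 3.27 ± 0.21 CPM under PRMT5i (SD, n = 2), a log2 fold change of -1.70 (SE 0.19, adjusted p = 8.79e-05), and -1.37 with the GC correction. In A375 it had 13.6 ± 2.87 CPM in control and 71.1 ± 25.1 CPM under PRMT5i (SD, n = 2), a log2 fold change of 2.37 (SE 0.28, adjusted p = 0.00077), and 2.35 with the correction. The difference between lines was -4.10 (SE 0.37, adjusted p = 1.56e-05), and -3.72 with the correction (adjusted p = 6.23e-05). Under CDK4/6i, BTG2 rose in A375 by 1.47 at 72 hours (adjusted p = 0.00257) and by 1.60 at 6 days (adjusted p = 0.000379, 1.31 with the correction). In CHL1 at 6 days it was 0.78 above the 72-hour control (adjusted p = 0.0127). PADI4, a p53 target that converts arginine to citrulline, had 2 counts in each A375 control library of 72 hours and 20 and 22 under PRMT5i (adjusted p = 0.00854), and it was at 0 or 1 count in the CHL1 libraries of 72 hours.

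In CHL1 under PRMT5i, JMJD6, a demethylase candidate, fell by 0.84 (adjusted p = 0.00202), PADI2, a deiminase like PADI4, had 33 and 35 counts in the control libraries against 1 and 12 in the treated ones (adjusted p = 0.005), and BTG1, the paralog of BTG2, rose by 0.58 (adjusted p = 0.0223). DDAH1 and DDAH2, which degrade free methylarginine, stood at -0.016 (adjusted p = 0.986) and -0.83 (adjusted p = 0.0531). So 1 of 7 rose and 3 fell in CHL1, 2 rose and 0 fell in A375, where 54% and 2.61% of all genes passed. Of the 5 with a GC value and enough reads, 0 rose and 3 fell in CHL1 with the GC correction, where 38.7% of the 13675 genes passed. The call of BTG1 was lost (-0.31, adjusted p = 0.193) and DDAH1 was called (-0.68, adjusted p = 0.00838).

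Genes that supply S-adenosylmethionine and remove its products were listed for 16 of 17, and 6 rose and 5 fell in CHL1 under PRMT5i, against 3 and 6 with the GC correction. Over all genes 54% passed, and 38.7% of the 13675 genes did so with the correction. SRM, the spermidine synthase, fell by 1.57 (adjusted p = 0.000118), and by 0.49 with the correction. AHCY, which removes S-adenosylhomocysteine, fell by 1.30 (adjusted p = 0.000309), and by 0.51 with the correction. APIP of the methionine salvage pathway rose by 1.16 (adjusted p = 0.000281), and by 0.60 with the correction. MAT2A, which makes S-adenosylmethionine, stood at -0.30 (adjusted p = 0.191) and -0.44 (adjusted p = 0.0431) with the correction. In A375 under PRMT5i 0 of 16 were called by edgeR, with 0 at an unadjusted p below 0.05.

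Of the 8 genes taken as a list of methylarginine readers, 5 rose and 1 fell in CHL1 under PRMT5i, where 54% of all genes passed. With the GC correction the counts were again 5 and 1, where 38.7% of the 13675 genes passed. SPIN1 lost its call (0.60, corrected -0.092) and SND1 gained one (-0.18, corrected 0.52, adjusted p = 0.0178). SMNDC1, a splicing factor with a Tudor domain, rose by 2.01 and, corrected, by 0.98 (adjusted p = 0.000288). TDRD3, which binds marks left by PRMT1 and CARM1, rose by 1.42 and, corrected, by 0.87 (adjusted p = 0.00043). SMN1 and SMN2, near-identical copies between which reads cannot be assigned with certainty, rose by 1.45 and 1.58, and by 0.89 and 1.01 with the correction. Each is counted as a gene of its own above. PHF19, listed here without a check that it reads methylarginine, fell by 1.22, and by 0.40 with the correction. In A375 none of the 8 was called by edgeR and 2 had an unadjusted p below 0.05. With the correction SMNDC1 (0.77, adjusted p = 0.00737) and SMN1 (0.58, adjusted p = 0.0285) were higher and PHF19 (-0.46, adjusted p = 0.0186) lower. There 10.4% of the 13675 genes passed with the correction, against 2.65% without it.

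Known substrates of type I enzymes were listed for 23 of 24, and 9 rose and 5 fell in CHL1 under PRMT5i, against 4 and 6 with the GC correction. The share that passed was 54% over all genes, and 38.7% of the 13675 genes with the correction. MED12, a CARM1 substrate of the Mediator complex, fell by 1.66 and, corrected, by 1.05 (adjusted p = 0.000194). RPS2, the PRMT3 substrate, fell by 1.45 and, corrected, by 0.63 (adjusted p = 0.00803). CIRBP fell by 1.30 and, corrected, by 0.41. Among those that rose, RBM15, a PRMT1 substrate that binds RNA, was 1.12 higher and, corrected, 1.84 higher (adjusted p = 0.000165). In A375 0 of 23 were called by edgeR, 2 had an unadjusted p below 0.05, and MED12 at -0.53 (adjusted p = 0.194) was called with the correction at -0.56 (adjusted p = 0.0199). The correction called 10.4% of the 13675 genes there.

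The medians of the 5 lists put these counts beside the whole table, where the median log2 fold change was 0 under PRMT5i in CHL1. There they were 0.52 for family members and cofactors, -0.83 for regulators and turnover, 0.037 for methyl donor supply, 1.01 for readers and 0.34 for type I substrates, and with the GC correction -0.15, -0.54, -0.15, 0.69 and 0.085. In A375 they were 0.26, 0.36, 0.065, -0.053 and -0.14. Under CDK4/6i, 1 type I substrate rose and 4 fell in CHL1 at 6 days, 0 and 4 in A375 at 72 hours, and 1 and 7 in A375 at 6 days, of 23 each, where 16.6%, 13.3% and 43.1% of all genes passed. The readers numbered 0 risen and 2 fallen of 8 in A375 at 72 hours, and 1 and 4 at 6 days. With the GC correction, the A375 counts at 6 days were 0 and 8 for the substrates and 0 and 4 for the readers, where 43.5% of the 13675 genes passed.

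The gene whose log2 CPM went most closely with each member over the 18 libraries was found among 15652 genes as a description, with points that share libraries and their base composition. PRMT1 and CARM1 had the same nearest gene, UBL4A, with a Pearson r of 0.98 and 0.99. UBL4A has a transcript of 57.2% GC. PRMT3 was nearest to MED4 (r = 0.99), whose transcript has 35.9% GC. PRMT7, with 50.8% GC, was nearest to LIF (r = 0.99, 57.1% GC). PRMT6, with 47.4% GC, was nearest to ZFP36L1 (r = 0.98, 58.8% GC), and PRMT2, with 48.0% GC, to FAM171A2 (r = 0.96, 71.2% GC). With the deviations from each line's mean in place of the levels, the same pairs had r of 0.97 for PRMT1, 0.99 for CARM1, 0.99 for PRMT3, 0.94 for PRMT7, 0.88 for PRMT6 and 0.83 for PRMT2, so the likeness of PRMT2 and PRMT6 came partly from the difference between lines.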

How the data were processed

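RNA came from 18 samples of CHL1 and A375 cells, and poly-A libraries were sequenced. Per the submitters' processing notes, reads were checked with FastQC 0.11.6, aligned to GRCh37 with HISAT2 2.0.4 and counted per gene with HTSeq 0.11.2, after which the study removed genes with low expression. The deposited values are whole-number counts made by the authors, with no normalization, and the sums per library differ. The study's methods state default settings for HTSeq, which count by strand, and the kit is not stated to keep strand. Groups were taken from the labels. Each line was fitted alone in edgeR 4.0.16 (R 4.3.3, TMM, quasi-likelihood test), differences between lines were fitted over 18 libraries, and p-values were Benjamini-Hochberg adjusted over 20705 genes with a threshold of 0.05. CPM are TMM-scaled over 18 libraries. GC content came from the longest GENCODE 44 transcript on GRCh37 for 13675 genes whose mean reached 1 CPM, and entered as a loess offset (span 0.4). Alternatives used DESeq2 1.42.0 and limma 3.58.1. The script was tested on simulated data. The members and lists were chosen with earlier results of these data known. Beside the members and PRMT5, named genes are those of the cofactor and turnover lists, up to 4 others per list with the smallest adjusted p under PRMT5i, and the nearest gene of each member. Some genes that this rule takes are not reported here. MAT2A, PHF19, SPIN1, SND1 and RBM15 were named after their values were seen. Precision is set by 2 libraries per group, and the floor of 3 counts covers counting error only.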

Additional observations from a re-analysis of the deposited data

Results flagged for a closer look

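The response to PRMT5i differed between the lines for 4 members by the interaction term in edgeR, where 40.9% of all genes passed. The CHL1 response minus the A375 response was -1.64 for PRMT1, 1.12 for PRMT3, -0.74 for PRMT7 and -1.14 for CARM1 on the log2 scale. In both CHL1 PRMT5i libraries, GC-rich transcripts were read less (-2.49 and -1.98 on the log2 scale), and with the GC correction the differences were -0.75, -0.16, -0.34 and -0.015, of which that of PRMT1 passed (adjusted p = 0.028). With the correction 29.3% of 13675 genes passed. Line, medium, p53 status and library set cannot be told apart in this difference. Groups of 2 libraries were too small for a check of single libraries that stand apart.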

How the results depend on the processing

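Each test rests on 2 libraries per group, and the GC correction used did not remove the tilt fully in CHL1 under PRMT5i. DESeq2, limma voom, RLE scaling, a fit of all 18 libraries and a low-count filter (1 CPM or more in 2 libraries or more) left every count of called members within 1.5 times of the value reported. RLE moved the median gene by 0.10 in the difference of PRMT5i responses and by less elsewhere. With the GC correction, called members numbered 2 under PRMT5i in CHL1, 1 under CDK4/6i in CHL1 at 72 hours, 1 there at 6 days, 1 under CDK4/6i in A375 at 72 hours and 1 in the difference of PRMT5i responses, and fold changes turned to -0.079 for PRMT3 in CHL1 under PRMT5i, -0.038 for PRMT1 and -0.11 for CARM1 in CHL1 under CDK4/6i at 72 hours, 0.082 for PRMT3 in A375 under PRMT5i, -0.18 for PRMT1 and -0.066 for CARM1 in A375 at 6 days, and -0.16 for PRMT3 in the difference of PRMT5i responses. In the order of these member counts, the correction called 38.7%, 15.6%, 31.8%, 28.9% and 29.3% of the 13675 genes. When each fit held the compared groups alone, counts were 1 under CDK4/6i at 72 hours in each line, 1 in A375 at 6 days and 1 for PRMT5i against CDK4/6i in A375. Of all 20705 genes, those fits called 4202 in CHL1 and 6940 in A375 at 72 hours, 5862 at 6 days and 4517 between the drugs. With the A375 control of 72 hours for 6 days, PRMT1 was at -0.88, PRMT3 at 0.078 and CARM1 at -0.66.

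The labels do not say what samples with the same number share. Correlations of their deviations were -0.34 to 0.44 in CHL1 and 0.22 to 0.48 in A375 at 72 hours, with 2 numbers per group. With a replicate block, called members were 3 under CDK4/6i and 3 for PRMT5i against CDK4/6i in A375 at 72 hours, and, with the same numbered libraries and no block (chosen after seeing the data), 1 and 2. Of all 20705 genes, 8752 and 7167 were called with the block, and 6424 and 4571 without it. With the GC correction and replicate block together, counts were 2 under PRMT5i, 1 and 1 under CDK4/6i in CHL1, 3 under CDK4/6i and 4 for PRMT5i against CDK4/6i in A375, and 1 in the difference of PRMT5i responses, with PRMT3 at -0.079 in CHL1, 0.082 in A375 and -0.17 in the difference, and PRMT1 at -0.038 and CARM1 at -0.11 in CHL1 under CDK4/6i. In the same order, these fits called 5459, 2321, 4505, 7330, 6235 and 5242 of the 13675 genes. No paired analysis was possible for A375 at 6 days because the labels number no replicates there.

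Leaving out each library in turn gave 3 to 5 called members under PRMT5i in CHL1, 2 to 5 in A375 at 6 days, 3 to 5 for PRMT5i against CDK4/6i in CHL1, 3 to 4 in the difference of PRMT5i responses, and 0 to 1 under CDK4/6i in CHL1 at 6 days, under CDK4/6i in A375 at 72 hours and for PRMT5i against CDK4/6i in A375. Fold changes that turned ranged from -0.065 to 0.068 for PRMT1 and -0.063 to 0.085 for CARM1 (CHL1, CDK4/6i 72 hours), -0.40 to 0.14 for PRMT2 (CHL1, PRMT5i), -0.027 to 0.43 for PRMT6 (CHL1, CDK4/6i 6 days), -0.083 to 0.28 for PRMT6 (A375, CDK4/6i 72 hours), -0.23 to 0.037 for PRMT1 and -0.18 to 0.033 for CARM1 (A375, PRMT5i) and -0.0079 to 0.64 for PRMT1 (A375, 6 days). The cause of these shifts was not tested. Over all 20705 genes, calls ran from 708 to 4202 (1032 as reported) under CDK4/6i in CHL1 at 72 hours, 232 to 6113 (541) under PRMT5i in A375, 2184 to 8752 (2761) under CDK4/6i in A375 at 72 hours, 5862 to 9493 (8928) in A375 at 6 days, 590 to 7167 (1129) for PRMT5i against CDK4/6i in A375, and 99 to 1797 (133) for the difference of CDK4/6i responses.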
